A study of Mus musculus with 8 samples.

Results

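The genes described here make, convert or remove phosphoinositides, the phosphorylated forms of the membrane lipid phosphatidylinositol. They were chosen by name: the PIP 5-kinases Pip5k1a, Pip5k1b and Pip5k1c, the PIP 4-kinases Pip4k2a and Pip4k2b, the PI3P kinase Pikfyve, the phosphatases Inpp5d and Synj1, and the phosphatidylinositol synthase Cdipt. All probe sets (groups of short array probes) whose only symbol in the platform annotation was one of these names were taken, which gave 18 probe sets for 8 of the 9 genes, of 22626 probe sets and 12393 genes tested. Synj1 had none and was not analysed here. The names were chosen with earlier results of these data known. Expression was measured on 8 Affymetrix mouse arrays, 4 from PICALM-rescued cells and 4 from Picalm-knockout cells. Each of 4 lines, PICALM6A, PICALM6B, PICALM6D and PICALM84 (6A, 6B, 6D and 84 here), gave 1 rescued and 1 knockout array. Rescued cells carried human PICALM cDNA in the MSCVneo retrovirus and knockout cells carried empty MSCVneo, both after selection in G418. All cells, rescued ones included, came from fetal livers of embryonic day 14 embryos with the fit1 and Picalm fit1-5R alleles (Picalm-/-) on the B6(Cg)-TyrC-2J/J background. All had been immortalized with a retroviral MLL-ENL oncogene (MSCV-IRES-eGFP), replated serially in methylcellulose and grown with IL-3 at 5 ng/ml and SCF at 50 ng/ml, so no cells with native Picalm were among them. The amount of PICALM made from the retrovirus may exceed the native amount, and Picalm itself was not analysed here.

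Phosphatidylinositol is made from CDP-diacylglycerol and inositol, and kinases add phosphates at the 3, 4 and 5 positions of its inositol ring. PIP 5-kinases make PI(4,5)P2, usually called PIP2, from PI4P at the plasma membrane, and PIP 4-kinases make it from PI5P. PIP2 recruits clathrin adaptors, PICALM among them through its ANTH domain, and is the substrate of PI 3-kinases and of phospholipase C. In myeloid cells PI 3-kinase signaling is limited by phosphatases, of which SHIP1 (Inpp5d) is largely restricted to blood cells.

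Among the 18 probe sets, the 3 of Pip5k1b and the 2 of Cdipt were higher with PICALM than with empty vector in each of the 4 lines, as was the single one of Pikfyve. Pip5k1b had by far the largest differences, 0.46 to 0.74 on the log2 scale (1.38- to 1.67-fold), and Cdipt differed by 0.14 and 0.16. The 13 probe sets of the other 6 genes differed by -0.13 to 0.10. None of the 18 passed an adjusted p of 0.05 in limma with the line as a block and Benjamini-Hochberg adjustment over all probe sets, where 0 of all 22626 were called higher and 4 lower (0.0177%). Those 4, named after their values were seen, were 2 of the transcription factor Sox4, 1 of the T cell co-stimulatory receptor Cd28 and 1 with no gene name. At an unadjusted p under 0.05, 5 member probe sets were higher and 0 lower, beside 6.17% higher and 6.32% lower over all probe sets. Those higher in all 4 lines were 6 of 18, beside 12% of all probe sets, and those lower in all 4 lines were 0 of 18, beside 11.8%. All 5 with an unadjusted p under 0.05 were of Pip5k1b and Cdipt. The study had listed both genes as higher from these same arrays, so these counts are not independent evidence. The probe sets of a gene share their target and are not independent. The arrays read whole cultures, in which fewer cells of a type and less RNA per cell cannot be told apart. The median log2 difference of the 18 was 0.01, beside 0.00 over all probe sets.

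**Figure D1:**
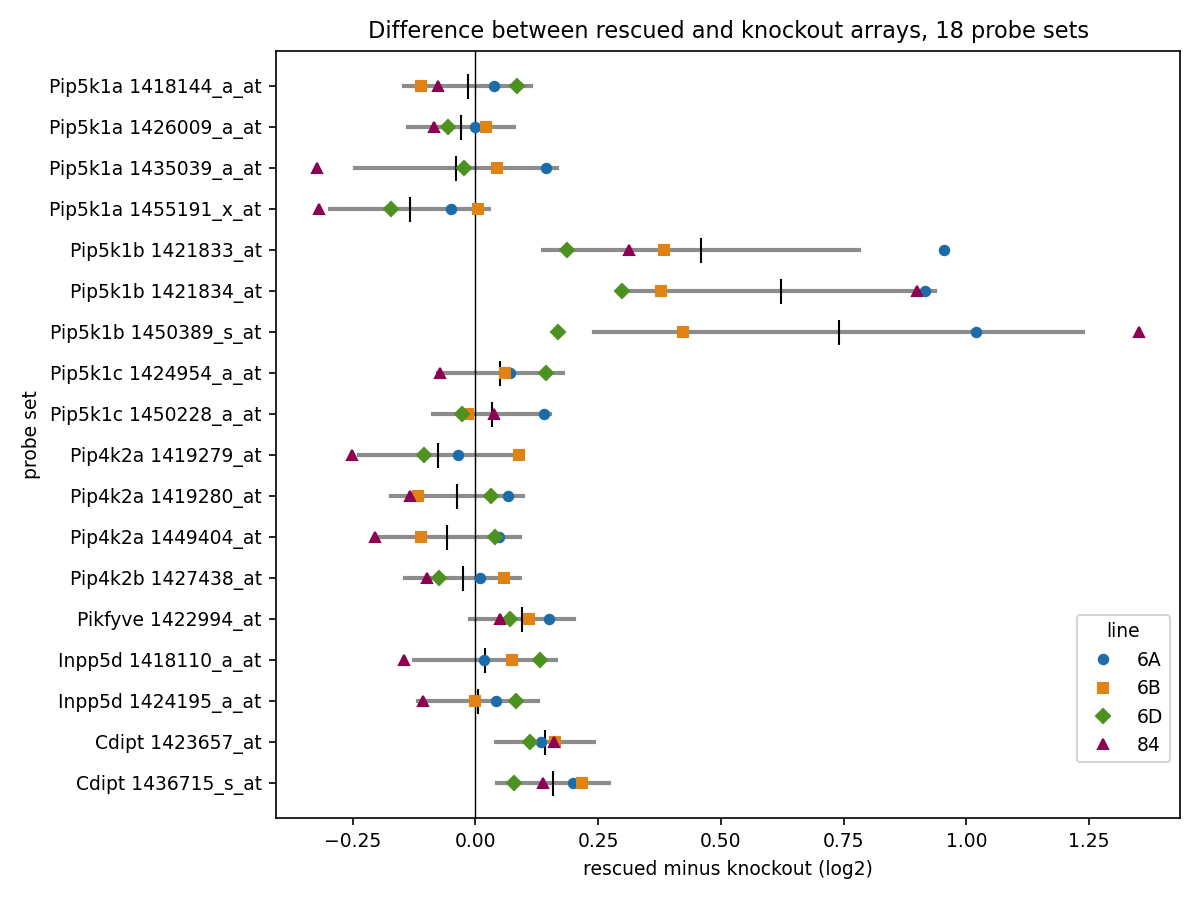
Difference in log2 expression, rescued minus knockout, for each of the 18 probe sets (rows); points are the 4 lines, the black tick is the mean and the grey bar the 95% interval from limma. The 3 Pip5k1b probe sets and the 2 of Cdipt have intervals above 0, and the other 13 have intervals that include 0.

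Pip5k1b encodes the beta isoform of type I PIP 5-kinase. For probe set 1421834_at the log2 levels in rescued cells were 7.38 in 6A, 7.15 in 6B, 7.19 in 6D and 7.28 in 84, against 6.47, 6.77, 6.89 and 6.38 in the knockout cells of the same lines. The groups did not overlap, and the lowest rescued array lay 0.26 above the highest knockout array. The rescued arrays lay close together, and the knockout arrays of 6A and 84 were the low ones. The mean was 7.25 ± 0.10 in rescued and 6.63 ± 0.24 in knockout cells (SD, n = 4 each), a log2 difference of 0.62 ± 0.13 (SE; 95% interval 0.31 to 0.94), or 1.54-fold, with adjusted p = 0.285 in limma.

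Probe set 1450389_s_at read 6.73, 6.69, 6.66 and 6.66 in rescued cells of 6A, 6B, 6D and 84, against 5.71, 6.27, 6.50 and 5.31 in knockout cells. The same 2 knockout arrays were low, and the spread between lines was 0.03 (SD) in rescued and 0.54 in knockout cells. Its log2 difference of 0.74 ± 0.20 (SE, adjusted p = 0.328 in limma) was made up of 1.02 in 6A, 0.42 in 6B, 0.17 in 6D and 1.35 in 84. Probe set 1421833_at read 7.15, 7.04, 7.05 and 6.93 in rescued cells, against 6.20, 6.66, 6.87 and 6.62 in knockout cells, a difference of 0.46 ± 0.13 (SE, adjusted p = 0.332 in limma). Here 6A stood apart with 0.95, and the other lines differed by 0.19 to 0.38.

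Across the 8 arrays the 3 probe sets correlated at 0.807 to 0.946, which describes measurements of 1 gene in the same samples. None of the 3 had overlapping groups, and the exact permutation test over the 70 arrangements of the arrays gave the smallest p it can give, 0.0286, for each. This test ignores the lines, and groups that do not overlap always give that value, so it adds nothing to their separation. The exact sign-change test over the 4 lines gave 0.125 for each, the smallest that 4 pairs allow. SAM, the test named in the study's methods, was recomputed here at their FDR threshold. Under it 1421834_at passed both paired by line and unpaired, and the other Pip5k1b probe sets passed neither. The study, however, lists 1450389_s_at of Pip5k1b among its genes higher with PICALM, so the recomputed calls differ from the study's own. SAM called 0.539% of all probe sets higher when paired and 0.0486% when unpaired. The study had itself listed Pip5k1b and Cdipt from these same arrays, so neither their presence among the members nor their direction is independent evidence.

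**Figure D2:**
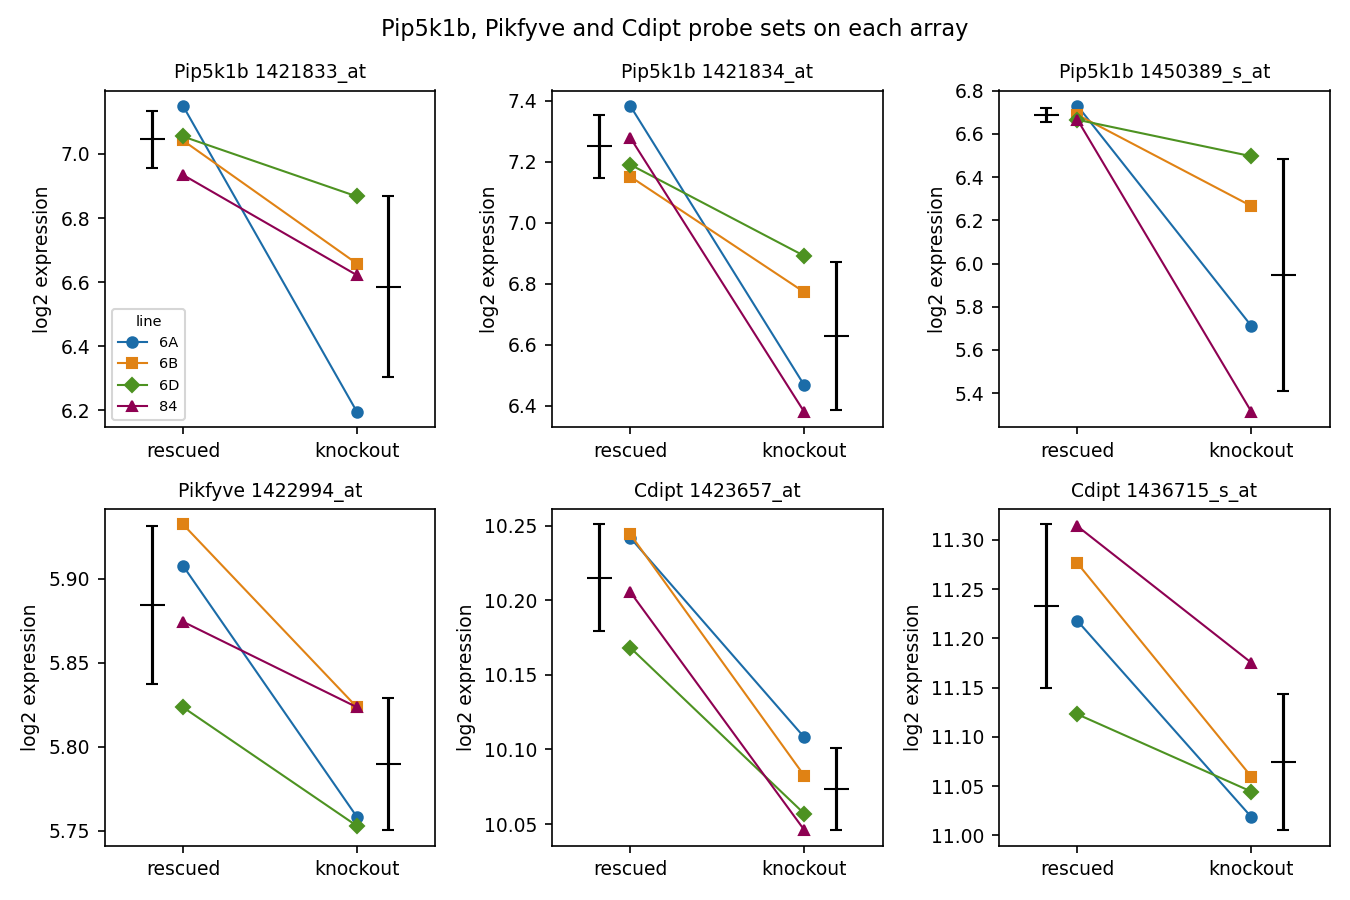
Log2 expression (vertical axis, a separate scale in each panel) of the Pip5k1b, Pikfyve and Cdipt probe sets in rescued and knockout cells; lines join the 2 arrays of a cell line, and the black bars are the group mean and SD (n = 4). For 1450389_s_at the rescued arrays lie between 6.66 and 6.73 and the knockout arrays between 5.31 and 6.50.

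The other PIP 5-kinase genes showed no such pattern. Pip5k1a, the alpha isoform, had 4 probe sets with log2 differences of -0.13 to -0.02, and in each of them the rescued and knockout arrays overlapped. The most negative, 1455191_x_at, read 8.71, 8.81, 8.73 and 8.73 in rescued cells of 6A, 6B, 6D and 84, against 8.76, 8.80, 8.90 and 9.05 in knockout cells (difference -0.13, 95% interval -0.30 to 0.03, adjusted p = 0.459 in limma). Its suffix marks a probe set that can also bind other transcripts. Pip5k1c, the gamma isoform, had differences of 0.05 (1424954_a_at, 95% interval -0.08 to 0.18) and 0.03 (1450228_a_at, -0.09 to 0.15), again with overlapping groups. The 2 Pip5k1c probe sets did not follow each other across the arrays (r = -0.39 over 8 arrays).

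The PIP 4-kinase Pip4k2a had 3 probe sets, with differences of -0.08 (1419279_at), -0.04 (1419280_at) and -0.06 (1449404_at) and 95% intervals that together ran from -0.24 to 0.10. Pip4k2b had 1 probe set, which read 3.68 to 3.93 in rescued and 3.77 to 3.93 in knockout cells (difference -0.03, 95% interval -0.14 to 0.09). This probe set was dim enough to fall among the lowest 40% removed by a filter on low values, so these data say little of Pip4k2b. The probe sets of Pikfyve and 1450389_s_at of Pip5k1b fell there too.

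Pikfyve makes PI(3,5)P2 on endosomes from PI3P. It read 5.91, 5.93, 5.82 and 5.87 in rescued cells of 6A, 6B, 6D and 84, against 5.76, 5.82, 5.75 and 5.82 in knockout cells. All 4 rescued arrays were above their own knockout partner, while the groups met at 5.82. The difference was 0.10 ± 0.04 (SE; 95% interval -0.01 to 0.20, adjusted p = 0.432 in limma).

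Inpp5d encodes SHIP1, which removes the 5-phosphate of PI(3,4,5)P3. Probe set 1418110_a_at read 10.49, 10.48, 10.50 and 10.56 in rescued cells, against 10.47, 10.41, 10.37 and 10.70 in knockout cells. Line 84 ran opposite to the other 3 lines, and the mean difference was 0.02 (95% interval -0.13 to 0.17). The other probe set, 1424195_a_at, had a difference of 0.00 (95% interval -0.12 to 0.13). Neither Inpp5d interval reached beyond 0.17 in either direction.

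Cdipt encodes the enzyme that joins inositol to CDP-diacylglycerol, the step that makes phosphatidylinositol itself. Probe set 1423657_at read 10.24, 10.24, 10.17 and 10.21 in rescued cells of 6A, 6B, 6D and 84, against 10.11, 10.08, 10.06 and 10.05 in knockout cells. The groups did not overlap, by 0.06, and the line differences were close together at 0.11 to 0.16. The means were 10.22 ± 0.04 in rescued and 10.07 ± 0.03 in knockout cells (SD, n = 4 each), a difference of 0.14 ± 0.04 (SE; 95% interval 0.04 to 0.24), or 1.10-fold, with adjusted p = 0.332 in limma. SAM called it when paired by line and not when unpaired.

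The second Cdipt probe set, 1436715_s_at, read 11.22, 11.28, 11.12 and 11.31 in rescued cells, against 11.02, 11.06, 11.04 and 11.18 in knockout cells. Its groups overlapped, since the knockout array of 84 was above the rescued array of 6D, but each line was higher with PICALM (difference 0.16 ± 0.05 SE, 1.12-fold, adjusted p = 0.333 in limma). Counting both genes, 4 of the 18 probe sets had groups that did not overlap with rescued higher, beside 1.88% of all probe sets, and 0 had the reverse, beside 1.57%. Since the study had listed both genes as higher from these same arrays, this count is not independent evidence.

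The members differed in what they varied with. The contrast of rescued and knockout cells took 56.0% to 78.8% of the sum of squares over the 8 arrays in the Pip5k1b probe sets, 58.8% and 86.7% in those of Cdipt and 61.5% in Pikfyve. In the other 12 probe sets it took 0.186% to 40.1%, and the line took 25.1% to 93.6%. Over all probe sets the medians were 8.11% for the contrast and 59.8% for the line.

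**Figure D3:**
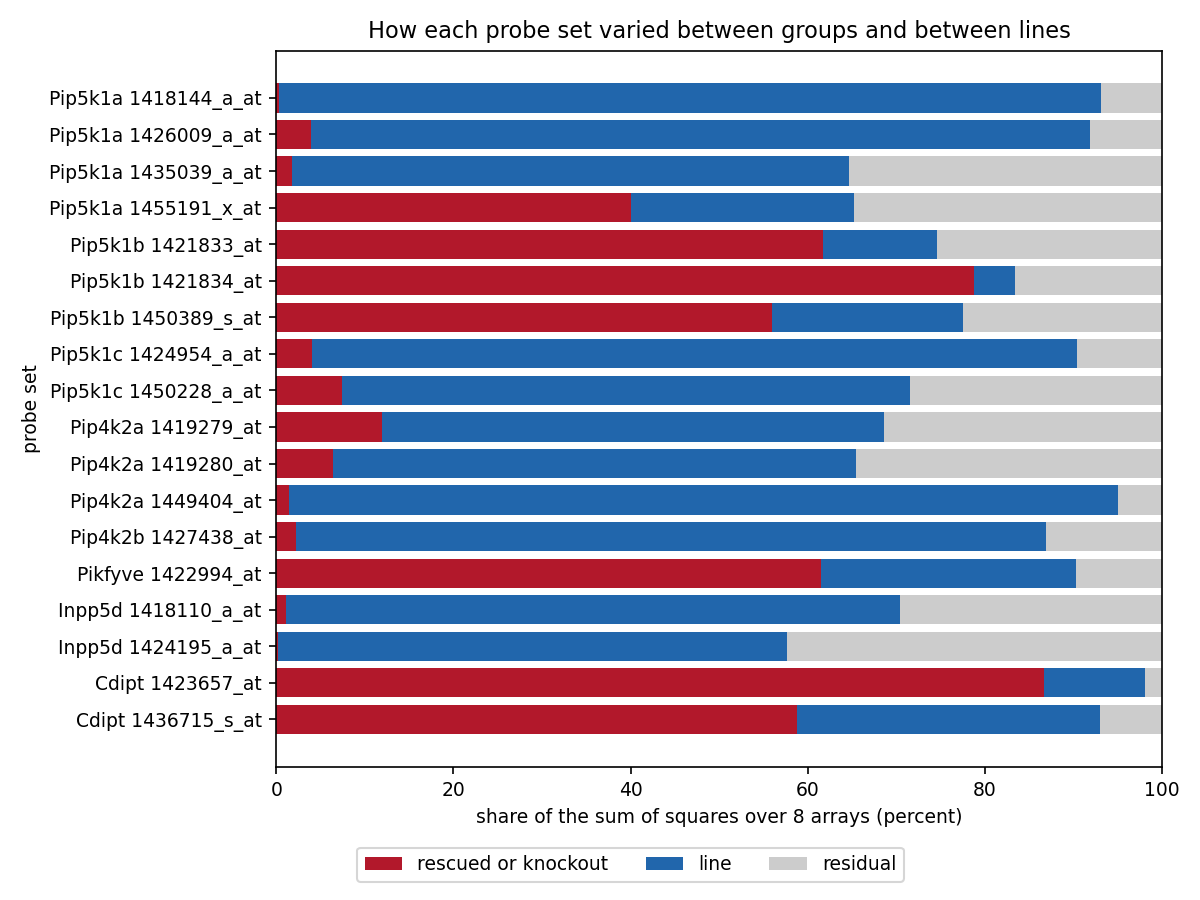
Share of the sum of squares over the 8 arrays (horizontal axis, percent) taken by the contrast of rescued and knockout cells, by the line and by the residual, for each of the 18 probe sets (rows). The contrast takes the largest share in Pip5k1b, Pikfyve and Cdipt, and also in 1455191_x_at of Pip5k1a, and the line takes the largest share elsewhere.

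Line 84 stood apart in several probe sets. For 1449404_at of Pip4k2a it read 9.32 in rescued and 9.52 in knockout cells, while the other lines lay between 8.85 and 9.06 in rescued and between 8.81 and 9.17 in knockout cells. This was the only member probe set whose lines differed at an adjusted p under 0.05 (limma F test of the lines, adjusted p = 0.0299), beside 10.8% of all probe sets, and it was not called once any 1 line was left out. Line 84 was also high for 1418144_a_at of Pip5k1a, at 9.15 in rescued and 9.23 in knockout cells, while the other lines lay between 8.79 and 8.93 in rescued and between 8.81 and 8.90 in knockout cells (adjusted p = 0.066 in the same limma test). For 1424954_a_at of Pip5k1c it was low, at 9.05 in rescued and 9.12 in knockout cells, while the other lines lay between 9.38 and 9.41 in rescued and between 9.26 and 9.34 in knockout cells.

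Around the members, 81 further genes of phosphoinositide metabolism were listed by role, of which 57 had a probe set (the one of highest mean was used). None of the 57 passed an adjusted p of 0.05 in limma, beside 0.00807% of all genes, and the lowest adjusted p was 0.318. At an unadjusted p under 0.05 in limma, 8 were higher in rescued cells (14.04%) and 5 lower (8.77%), beside 6.83% and 6.24% of all 12393 genes. Without the line as a block these counts were 1 and 1, and by the mean over the probe sets of a gene 4 and 6. In all 4 lines, 14 were higher and 8 lower, beside 13.4% and 12% of all genes, and their median log2 difference was 0.02, beside 0.01 over all genes. The adjusted p-values of the 15 genes named next were 0.318 to 0.610 in limma.

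The genes that met the unadjusted threshold came from several steps. Of the 6 genes measured for the supply of phosphatidylinositol, Cds2, which makes the CDP-diacylglycerol that Cdipt uses, differed by 0.18 ± 0.07 (SE). Of 5 genes of the PI 4-kinases, Efr3a, a membrane anchor of the plasma membrane PI 4-kinase, differed by -0.15 ± 0.04. Its 4 lines lay between -0.18 and -0.12, and SAM paired by line called it lower, as it did 2.08% of all probe sets. Of 10 PI 3-kinase genes, the adaptor Pik3ap1 differed by 0.14 ± 0.05 and the regulatory subunit Pik3r2 by -0.15 ± 0.05. Of the catalytic subunits, Pik3ca, Pik3cd and Pik3cg differed by 0.02 to 0.08 and Pik3c2a by 0.17 ± 0.09, higher in all 4 lines. Pik3c3 differed by -0.05 and the dim Pik3c2g by -0.03. None of these catalytic subunits met the unadjusted threshold, and Pik3cb had no probe set.

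The phosphatases were mixed. Inpp4a, which removes the 4-phosphate of PI(3,4)P2, averaged 8.51 ± 0.25 in rescued and 8.13 ± 0.38 in knockout cells (SD, n = 4 each), with a difference of 0.38 ± 0.10 (SE) that was 0.52 in 6A, 0.22 in 6B, 0.10 in 6D and 0.67 in 84. Among 9 genes of 5-phosphatases and Sac phosphatases, Inppl1, which encodes SHIP2, averaged 7.92 ± 0.60 in rescued and 8.22 ± 0.49 in knockout cells, a difference of -0.30 ± 0.09 (SE) that was -0.61 in 84 and -0.05 in 6D. Inpp5k differed by 0.12 ± 0.05. Of 10 myotubularin genes, most of which encode PI3P and PI(3,5)P2 3-phosphatases, Mtmr3, Mtmr4 and Mtmr6 each differed by 0.19, and Mtmr2 by -0.20.

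Among 8 phospholipase C genes, which split PIP2 into diacylglycerol and IP3, Plcb2 read 9.01, 8.93, 8.89 and 8.98 in rescued cells of 6A, 6B, 6D and 84, against 8.43, 8.69, 8.74 and 8.70 in knockout cells. Its groups did not overlap, and the difference was 0.31 ± 0.08 (SE, 1.24-fold). Plcb2 is another gene that the study listed from these arrays. Plce1 read 4.58 to 4.61 in rescued and 4.68 to 4.77 in knockout cells, a difference of -0.13 ± 0.04. Its probe set was dim and fell among the lowest 40% removed by the filter on low values. In the lists with no gene past the unadjusted threshold in all 4 lines, Vac14, the scaffold of Pikfyve, had the largest difference of the 3 other PIP kinase genes (0.13 ± 0.10 SE). This rested on line 84, at 0.48, while the other lines differed by -0.08 to 0.14 and the difference was 0.01 without line 84. Dgka had the largest difference of the 4 diacylglycerol kinase genes (0.26 ± 0.14), of which 0.81 was in line 84 and 0.00 to 0.15 in the other lines.

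**Figure D4:**
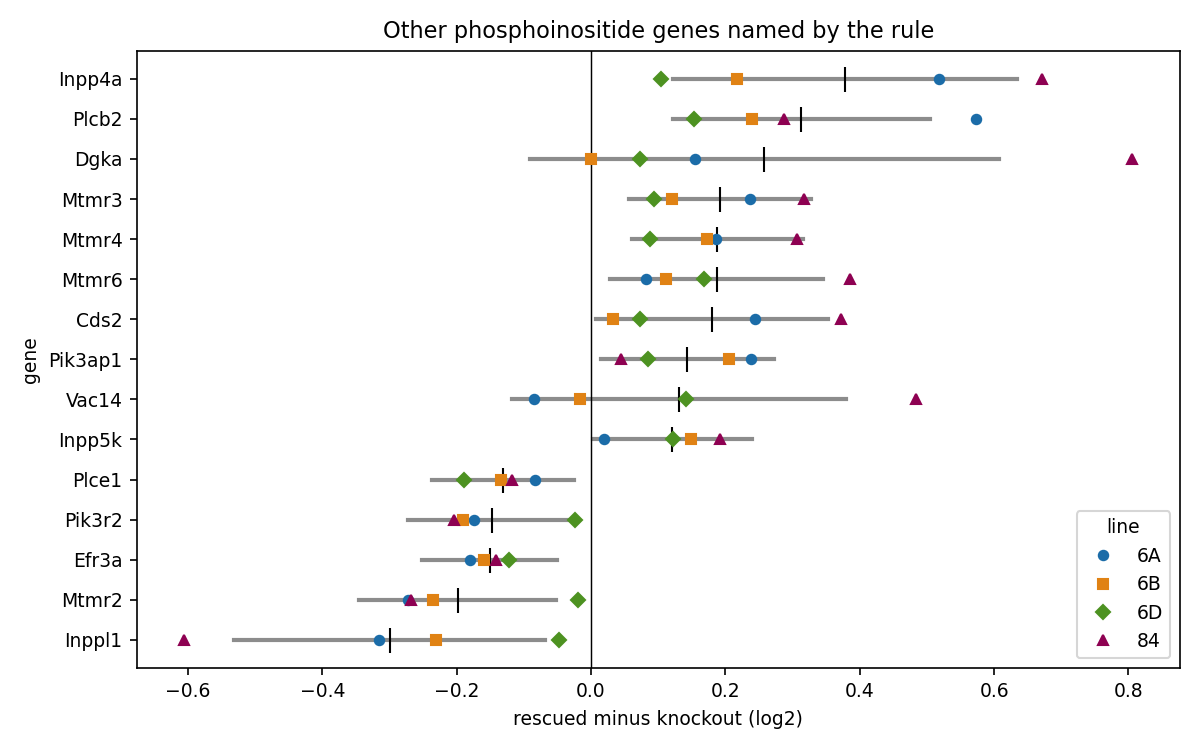
Difference in log2 expression, rescued minus knockout, for 15 further phosphoinositide genes (rows); points are the 4 lines, the black tick is the mean and the grey bar the 95% interval from limma. Inpp4a and Plcb2 lie at the higher end and Inppl1 at the lower end, and the point of line 84 is the outermost for most of the genes with large differences.

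Markers of blood cell types were read on the same arrays. All 8 general hematopoietic genes were measured, led by Mpo (14.09 ± 0.03 in rescued and 13.97 ± 0.07 in knockout cells, SD, n = 4 each) and Myb, and the mean of this list was 11.1 to 11.3 in rescued and 11.2 to 11.3 in knockout cells. Its members went both ways, with 3 higher and 2 lower at an unadjusted p under 0.05 and 0 past the adjusted threshold in limma. The 3 higher ones were Mpo, Spi1 (0.23 ± 0.06, SE) and Csf2rb (0.29 ± 0.06, SE), each higher in all 4 lines. The 2 lower ones were the progenitor marker Cd34 and the SCF receptor Kit. Apart from Mpo, these genes were named after their values were seen. Cd34 averaged 9.76 ± 0.93 in rescued and 11.01 ± 0.77 in knockout cells (SD, n = 4 each). It was lower in rescued cells of all 4 lines, with differences of -1.92 in 6A, -1.62 in 6B, -0.51 in 6D and -0.94 in 84, and SAM paired by line called it lower. Kit differed by -0.26 ± 0.08 (SE) and was lower in 3 lines, with a difference of 0.01 in 6A. Normalized array values have no zero, so no marker could be listed at 0. The mean log2 level of 10 neutrophil granule genes was 10.1 to 11.3 in rescued and 8.403 to 9.644 in knockout cells. Of these 10, 6 were higher and 0 lower at an unadjusted p under 0.05, and 0 passed the adjusted threshold in limma. S100a9, one of its most abundant genes, averaged 14.03 ± 0.28 in rescued and 12.50 ± 1.41 in knockout cells.

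The neutrophil granule list differed by 1.67 in 6A, 0.80 in 6B, 0.43 in 6D and 1.74 in 84, so it was furthest apart in the same lines, 6A and 84, as 1421834_at of Pip5k1b (0.92, 0.38, 0.30 and 0.90) and 1450389_s_at. Probe set 1421833_at of Pip5k1b did not have this order, with 0.95 in 6A, 0.38 in 6B, 0.19 in 6D and 0.31 in 84, and neither did Cd34. The list of 8 mast cell and basophil genes differed by 1.07, 0.24, 0.60 and 1.51, so it too was furthest apart in 6A and 84. Its means were 5.94 to 8.67 in rescued and 5.70 to 7.16 in knockout cells, and 5 of 8 were higher at an unadjusted p under 0.05 in limma. Inpp4a, Mtmr3, Mtmr4, Cds2, Plcb2, Dgka and Pik3c2a were also furthest apart in 6A and 84. So were Inppl1 and Mtmr2, which were lower in rescued cells. Efr3a, Mtmr6, Pik3r2, Pik3ap1, Inpp5k, Plce1 and Vac14 were not. Cdipt 1436715_s_at differed by 0.20, 0.22, 0.08 and 0.14 and did not have this order. The part of these cell-type genes, Cd34 included, in the Pip5k1b result was not tested.

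The means of the other lists differed less between the groups. The mean of 6 megakaryocyte and platelet genes was 6.28 to 7.15 in rescued and 6.13 to 7.86 in knockout cells, and that of 5 erythroid genes was 7.34 to 7.91 in rescued and 7.27 to 7.75 in knockout cells, with line 84 highest in both groups. Tfrc, the brightest of the erythroid genes, averaged 12.68 ± 0.07 in rescued and 12.92 ± 0.12 in knockout cells (SD, n = 4 each). It was lower in rescued cells of all 4 lines, and SAM paired by line called it lower. The means of 5 B and T cell genes (5.06 to 5.67 in rescued, 5.19 to 5.71 in knockout), 6 hepatocyte genes (6.08 to 6.44 in rescued, 6.38 to 6.47 in knockout) and 7 fibroblast and endothelial genes (6.01 to 6.30 in rescued, 5.96 to 6.33 in knockout) overlapped between the groups. Within them, Cd79b averaged 6.90 ± 1.35 in rescued and 7.61 ± 1.11 in knockout cells, and Afp averaged 6.98 ± 0.65 in rescued and 8.24 ± 0.31 in knockout cells (SD, n = 4 each), which SAM called lower both paired and unpaired.

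**Figure D5:**
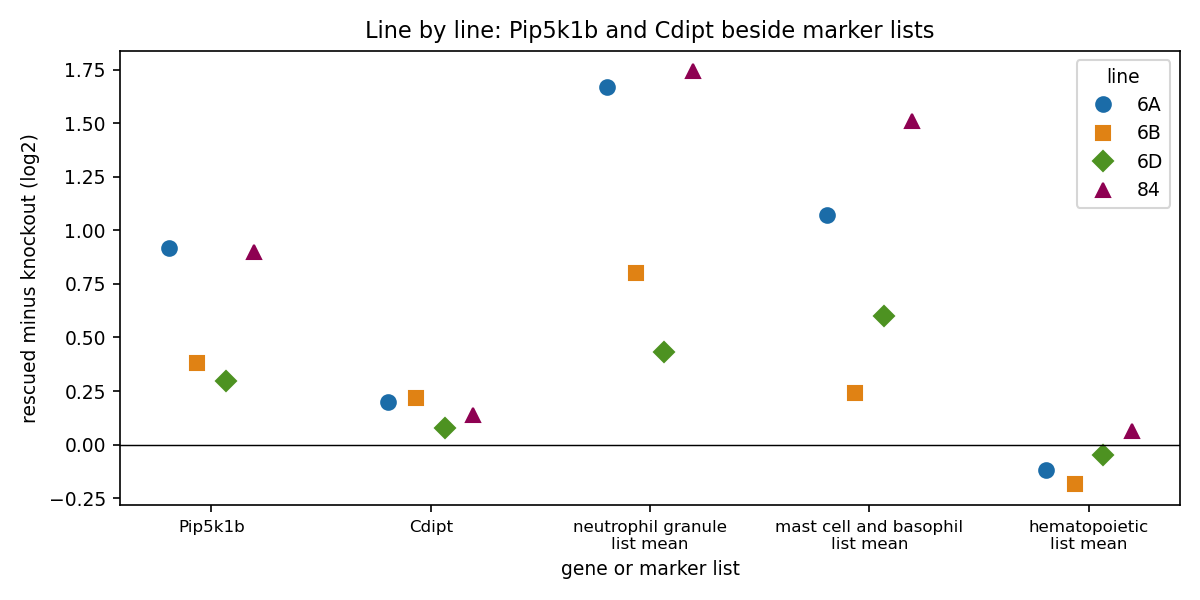
Difference in log2 expression, rescued minus knockout (vertical axis), in each line for Pip5k1b 1421834_at, Cdipt 1436715_s_at and the mean of 3 marker lists. This Pip5k1b probe set, the neutrophil granule list and the mast cell and basophil list are all larger in 6A and 84 than in 6B and 6D. The hematopoietic list lies between -0.19 and 0.06.

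Of 12385 other genes, Rnf14 had the pattern over the 8 arrays most like Pip5k1b 1421834_at (Pearson r = 0.973), followed by Sema4a (0.956), Rasa2 (0.956), Washc1 (0.952) and Surf1 (0.946). These correlations describe 8 arrays that share lines and groups, and they were the highest of many. Sema4a averaged 10.87 ± 0.05 in rescued and 10.43 ± 0.19 in knockout cells (SD, n = 4 each), and Rasa2 averaged 10.11 ± 0.10 in rescued and 9.78 ± 0.15 in knockout cells. The log2 differences of the 5 genes were 0.11 to 0.44, higher in rescued cells of all 4 lines, with adjusted p of 0.272 to 0.420 in limma.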

How the data were processed

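The authors hybridized RNA from each culture to Affymetrix mouse arrays (labels and methods name different versions of one mouse design) and normalized them by RMA. The deposited values are on a log2 scale and were not rescaled. Array medians were 7.32 to 7.35. Of 22690 probe sets, 64 controls were left out. Of the rest, 20380 had 1 gene symbol in the platform annotation, 691 several and 1555 none. Arrays give no read depth, so the number of arrays limits precision.

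Rescued and knockout arrays were compared in limma 3.58.1 (lmFit and eBayes, R 4.3.3, statmod 1.5.0) by two-sided tests, and p-values were adjusted by Benjamini-Hochberg over the 22626 probe sets. The line was a block because a line's rescued and knockout cells share their origin. Deviations of the 2 arrays from their group means correlated at 0.623 to 0.811, and all 8 arrays were closest to their own line. The methods name SAM and an FDR threshold without naming pairing, so SAM was run both ways. It was computed from its published statistic, not with the authors' software. It did not call every probe set that the study listed, and 1450389_s_at of Pip5k1b was among those not called.

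The members and the lists of other genes were chosen with earlier results of these data known. The text names all member probe sets, listed genes with an unadjusted p under 0.05 and 1 direction in all 4 lines (the largest difference where a list had none), up to 2 genes of a marker list and the 5 genes most like Pip5k1b. Cd79b, Afp and Tfrc are each among the 2 brightest genes of their lists. Cd34, Kit, Spi1, Csf2rb and the PI 3-kinase catalytic subunits were named after their values were seen. The labels do not say whether lines came from different embryos, so p-values measure the spread between these lines. Alternatives were a fit without the block, the methods' t-test, SAM, median centring, quantile normalization, a filter on the dimmest 40%, weighted arrays, a robust variance trend, the FDR threshold of the methods, the mean over probe sets, and leaving out each line or array. Scripts were tested on simulated data. Protein sequences were not used here.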

Additional observations from a re-analysis of the deposited data

Results flagged for a closer look

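In each group of 4 arrays, the array farthest from the others was tested with Dixon's test, over 82 groups, of which chance would mark about 1 in 20. It marked 16, and 13 of these were arrays of line 84. Among the members these were the rescued array of 84 for 1424954_a_at of Pip5k1c (9.05), the knockout array of 6A for 1450228_a_at of Pip5k1c (6.95) and the knockout array of 84 for 1419279_at of Pip4k2a (9.36).

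Among the other phosphoinositide genes, the knockout array of 84 stood apart for Cds2 (7.82), Vac14 (7.69), Pik3r2 (8.62) and Inpp4a (7.56), and the knockout array of 6A for Plcb2 (8.43). For Dgka both arrays of 84 stood apart, at 7.76 in rescued and 6.95 in knockout cells.

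Among the marker lists, the mean of the hematopoietic list was apart in the rescued array of 84 (11.3), that of neutrophil granule genes in the rescued array of 6A (11.3) and that of mast cell and basophil genes in the knockout array of 84 (7.16). The megakaryocyte and platelet list was apart in both arrays of 84, at 7.15 in rescued and 7.86 in knockout cells, and the erythroid list in the rescued array of 84 (7.91).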

How the results depend on the processing

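The directions of Pip5k1b, Cdipt and Pikfyve held under every alternative run, but many of these could not change them. SAM, the t-tests, the FDR threshold, the variance trend, the dim filter and the fit without the block kept the same mean differences. Leaving out a line could not turn probe sets that were higher in every line. Pikfyve and 1450389_s_at of Pip5k1b were not in the run without the dimmest 40%. Leaving out each line gave log2 differences of 0.53 to 0.73 for 1421834_at and 0.13 to 0.15 for 1423657_at, and their lowest adjusted p over the limma alternatives were 0.166 and 0.219. Member probe sets called (0 in the main comparison) were 0 without the replicate block, 2 under SAM paired by line, 1 under SAM unpaired, 4 under the methods' t-test paired by line and 6 unpaired, and 0 once the t-test was adjusted by Benjamini-Hochberg.

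Over all probe sets, 0 higher and 4 lower in the main comparison became 0 and 0 without the replicate block, 0 and 8 without the dimmest 40%, 1 and 24 with array weights, 4 and 28 with a variance trend, 1 and 17 at the FDR threshold of the methods, 122 and 470 under SAM paired by line, 11 and 39 under SAM unpaired, 994 and 1217 under the methods' t-test paired by line and 617 and 562 unpaired. The count of lower ones was 0 for both adjusted t-tests and without any 1 line. Single arrays were left out only in the fit without the block, where the count was already 0, and it stayed 0.

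The 8 higher and 5 lower other phosphoinositide genes were 1 and 1 without the replicate block and 2 and 1 under the unpaired t-test. By the mean over the probe sets of a gene they were 4 higher and 6 lower, so more were then lower than higher. Leaving out lines gave 4 to 6 higher and 2 to 6 lower, and leaving out arrays without the block 1 to 3 in each direction. The 1 member whose lines differed was 2 with the filter on dim probe sets and 0 without any 1 line.

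With array weights Pip5k1a 1435039_a_at turned to 0.0201. Leaving out lines or arrays turned the sign of small differences, which then ran from -0.0897 to 0.0789 (Pip5k1a 1418144_a_at), -0.0586 to 0.0183 (1426009_a_at), -0.113 to 0.0698 (1435039_a_at), -0.0120 to 0.0548 (Pip5k1c 1450228_a_at), -0.0728 to 0.00276 (Pip4k2a 1419280_at), -0.153 to 0.0858 (1449404_at), -0.0594 to 0.0315 (Pip4k2b), -0.0193 to 0.0916 (Inpp5d 1418110_a_at) and -0.0223 to 0.0415 (1424195_a_at). The larger difference of Dgka, 0.26 in the main comparison, also turned when arrays were left out without the block, and ran from -0.206 to 0.540. The cause of these changes was not tested.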
